A study of Mus musculus with 23 samples.

Results

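The prefrontal cortex of mice 192 h after injection of tumour cells is described here, as 7 of the 23 arrays of a series on the brain response to a tumour growing elsewhere in the body. Male Balb/c mice aged 8 weeks received under the skin 1000000 CT-26.WT cells, a colon carcinoma line that arose in the same mouse strain, in 300 µl of PBS. Control mice of the same strain, sex and age received 300 µl of PBS alone. Both were killed by decapitation at the labelled time, and prefrontal cortex RNA after tumour cells and after PBS was hybridised together on each array, with 1 sample in the dye Cy3 and the other in Cy5. The arrays were chosen by their label of 192 h, and 1 of the 8 with that label, array 262, was left out. The mean rank correlation of its probe brightness with arrays of other print layouts was 0.0427, against 0.291 to 0.461 for the 7 arrays kept, so its brightness did not bear out its probe names. The labels do not say how many mice made up a sample or how large the tumours were.

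The 7 arrays belong to 4 samples that the series' design text calls biological replicates. Replicate 1 is array 310 alone, with tumour RNA in Cy5. The other array of replicate 1 was array 262, left out here, which also had tumour RNA in Cy5. Replicate 2 is arrays 306 and 314, both with tumour RNA in Cy3. Replicates 3 and 4 are dye swaps, with tumour RNA in Cy5 on arrays 417 and 497 and in Cy3 on arrays 419 and 498. Replicates 1 and 2 were of poly(A) RNA purified from total RNA and shared a print layout, whereas replicates 3 and 4 were of total RNA and each had a layout of its own. Kind of RNA, print layout and balance of the dyes therefore cannot be told apart in these 4 replicates. The comparison with an earlier time used 3 replicates of total RNA taken 18 h after the same injections, all dye swaps (6 arrays) on the layout of replicate 4.

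A growing tumour can reach the brain without cells entering it, through cytokines in the blood that act on vessels and microglia, through sensory and vagal nerves, and through adrenal glucocorticoids. In the cortex such signals are known to act on microglia, astrocytes and endothelium, on immediate early genes that neurons switch on with activity, and on synaptic and metabolic genes. The cortex is a mixture of these cells, and in such bulk RNA a lower ratio for fewer cells of a type and for less RNA per cell cannot be told apart.

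At 192 h no gene differed between cortex after tumour cells and cortex after PBS beyond the spread of the 4 replicates. Levels are compared as log2 of tumour over PBS within an array, where 1 stands for a 2-fold higher level after tumour cells and 0 for equal levels. Of 4679 probes measured in at least 3 of the 4 replicates (4593 gene symbols), limma's moderated test against 0 called 0 at an adjusted p under 0.05 (Benjamini-Hochberg over all probes tested, 0% called), and the smallest adjusted p was 0.999. At an unadjusted p under 0.05 stood 39 probes (0.834% of those tested), 24 higher (0.513%) and 15 lower (0.321%). Without any change a calibrated test places a share of 0.05 there, so these p-values ran high. With the dye that held the tumour RNA as a covariate, 264 probes stood there (5.64%) and 0 were called. Ratios were small, with a median size of 0.091, a median of 0.02 and 56.7% of probes above 0, and the median standard error was 0.14. The 95% confidence interval reached 0.33 to either side of the estimate in the median probe, and it lay wholly within a 2-fold change for 96.4% of the probes. Gpcpd1, a phosphodiesterase of membrane lipid breakdown, was the 1 probe whose mean log2 ratio passed 1 in size, at 1.24, and its replicates did not share a direction (a probe singled out after its values were seen). With 4 replicates an exact sign-flip permutation test of 1 probe cannot go below a two-sided p of 0.125.

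Agreement among the replicates was low. Of the 1988 probes with a value in all 4 replicates, 71 were higher in all 4 (3.57%) and 72 lower in all 4 (3.62%), together 143 (7.19%). Another 1027 had 3 replicates on one side and 1 on the other (51.7%), and 818 were split with 2 higher and 2 lower (41.1%). Independent signs, equally likely each way, would agree in all 4 replicates for a share of 0.125. None of the 143 had a log2 ratio of at least 0.2 in size in every replicate. Among the 2691 probes with values in exactly 3 replicates, 531 had the same sign in all 3 (19.7%). The arrays outnumber the replicates, so a shared sign is harder to reach on them. Of the 1988 probes, 14 had the same sign on every array that measured them (0.704%).

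The replicates were compared with each other across all probes that a pair shared, as a description in which probes of 1 array share sample, dye and print. Replicates 1 and 2 ran opposite to each other (Pearson r = -0.47 over 3955 probes, with 37.8% of probes of the same sign). The pair of replicates 3 and 4 had an r of -0.01 over 3378 probes, of which 1670 had the same sign (49.4%). Over the 6 pairs the correlation lay between -0.47 and 0.06, with a median of -0.01. The spread of the ratios differed too: the standard deviation over probes was 0.49 in replicate 1, 0.47 in replicate 2, 0.24 in replicate 3 and 0.18 in replicate 4. Log2 ratios of at least 1 in size were held by 304 probes of replicate 1 and 163 of replicate 2, against 14 of replicate 3 and 5 of replicate 4. These spreads and counts are not of like quantities. Replicate 1 is 1 array, replicate 2 a mean of arrays with tumour RNA in the same dye, and replicates 3 and 4 means of dye swaps. A mean over a swap takes out the part of a ratio that follows the dye.

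**Figure D1:**
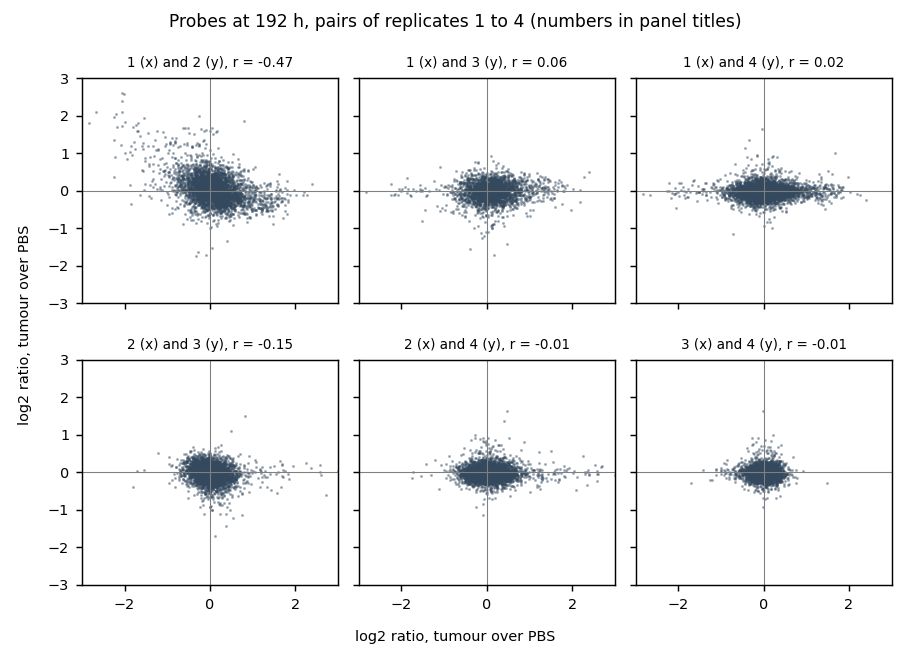
Each panel plots the log2 ratio of tumour over PBS at 192 h of every probe in 1 replicate (x axis) against another (y axis), with both axes limited to 3 in size, which leaves out 29 probes. Replicates 1 and 2 slope downward (r = -0.47), and in the other 5 panels the clouds are round or lie along an axis, with r between -0.15 and 0.06.

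The sign of the correlation between arrays followed the dye that held the tumour RNA. Among the 21 pairs of arrays, the 9 pairs with tumour RNA in the same dye all had a positive r, from 0.034 to 0.578 with a median of 0.162. The largest of these was between arrays 306 and 314, the same-dye arrays of replicate 2. Of the 12 pairs with tumour RNA in opposite dyes, 11 had a negative r, from -0.514 to 0.041 with a median of -0.203. Taken as Cy5 over Cy3, without regard to which dye held the tumour RNA, 20 of the 21 pairs correlated positively. The direction of every ratio here rests on the dye labels. A mean that lacks replicate 1 or replicate 2 also keeps a part that follows the dye. Tbr1, Tacr1, Nfil3, Csnk1d, Hsd11b2 and Pdia6, named below, are among such probes.

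**Figure D2:**
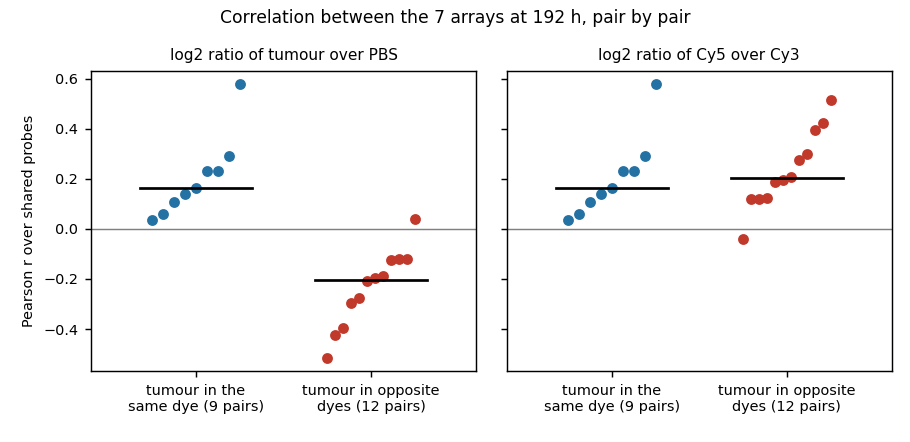
Points are the 21 pairs of the 7 arrays, with Pearson r over shared probes on the y axis and the median as a bar, for the ratio of tumour over PBS (left) and for Cy5 over Cy3 (right). Opposite-dye pairs lie below 0 in 11 of 12 cases on the left, and 20 of all 21 pairs lie above 0 on the right.

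Within a dye swap the part of a ratio that follows the sample can be set against the part that follows the dye: the first is the mean of both arrays' tumour over PBS ratios, the second their difference divided by 2. In replicate 4 the part that follows the dye was the larger (standard deviation 0.268 over 6625 probes, against 0.177 for the part that follows the sample), and the arrays correlated at -0.395 with 36.5% of probes of the same sign. In replicate 3 both parts were alike (0.235 and 0.244 over 3852 probes), with an r of 0.041 and 50.8% of probes of the same sign. Replicates 1 and 2 hold 1 dye orientation each, so no such separation exists for them. Signal in 1 channel alone, which gives no ratio, was never on the side of the same sample on all 7 arrays: 0 probes had it for tumour RNA throughout and 0 for PBS RNA. Counts on single arrays left little room for this. Arrays 417 and 497, with tumour RNA in Cy5, had it for tumour RNA at only 39 and 13. Arrays 306, 314 and 419, with tumour RNA in Cy3, had it for PBS RNA at only 1, 2 and 3. Counts were less one-sided on array 310 (1795 for tumour, 321 for PBS) and array 498 (369 and 181). The 0 and 0 therefore cannot show whether a gene had RNA in 1 sample alone.

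**Figure D3:**
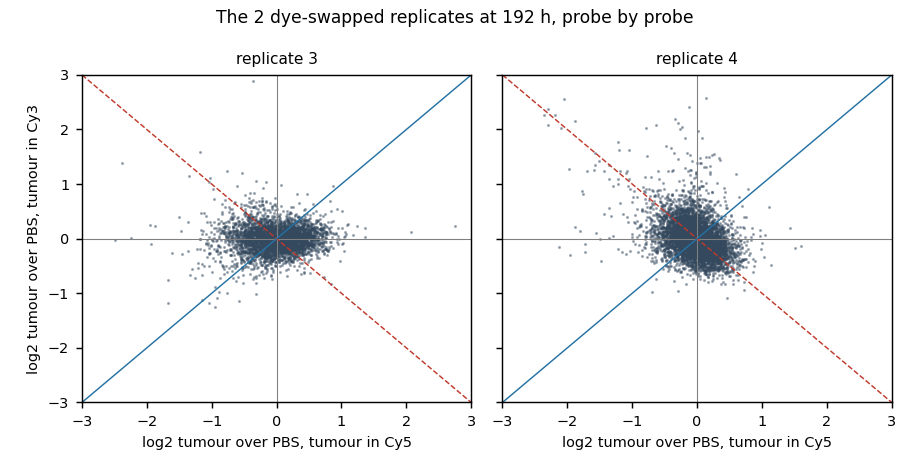
Each point is a probe, with its log2 ratio of tumour over PBS on the array with tumour RNA in Cy5 (x axis) and in Cy3 (y axis), for replicates 3 and 4. The solid line marks equal ratios and the dashed line ratios that follow the dye. Replicate 4 slopes along the dashed line (r = -0.395) and replicate 3 shows no slope (r = 0.041), with 5 probes beyond the axes.

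The genes with the smallest p among those of 1 direction in all 4 replicates are given next, 12 each way. They were picked by direction and p, so their shared direction is no further support, and the adjusted p of each was 0.999. Cep250, a centrosome linker protein, had log2 ratios of 0.60, 0.43, 0.14 and 0.20 in replicates 1 to 4. Its mean was 0.34 ± 0.12 (SE, n = 4), with the poly(A) replicates above the total RNA ones. On single arrays it took both signs, with -0.39 on array 497 and 0.80 on its swap partner 498. Polr1c, a subunit shared by RNA polymerases I and III, had -0.34, -0.19, -0.35 and -0.19, a tight set with a mean of -0.27 ± 0.10 (SE, n = 4). It was below 0 on each of the 6 arrays that measured it.

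Other members of the nuclear and RNA machinery were found on both sides. Nrde2, a nuclear protein of RNA surveillance and splicing, had 0.07, 1.5, 0.17 and 0.57 in replicates 1 to 4, so that replicate 2 carried its mean of 0.58. Pdcd11, a ribosome biogenesis factor, had 0.30, 0.69, 0.03 and 0.24. Gtf3c2, a subunit of the factor that recruits RNA polymerase III, averaged 0.25 on the probe named by the rule and 0.04 on a second probe, which took both signs. Phf23, a PHD finger protein, had 0.66, 0.47, 0.25 and 0.01. On the lower side, Mllt3, a component of transcription elongation complexes, had -0.34, -0.86, -0.05 and -0.20 with a mean of -0.36, and a second probe gave -0.44 in replicate 1 and no value elsewhere. Cmss1 averaged -0.25, and its second probe, measured in 2 replicates, averaged 0.11.

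Genes of protein turnover and membranes also stood on both sides. Vps4b, the ATPase that disassembles the ESCRT machinery on endosomes, had 0.38, 0.23, 0.14 and 0.19 with a mean of 0.23 ± 0.10 (SE, n = 4). The ubiquitin ligase Arih2 and the cullin adaptor Kctd5 averaged 0.27 and 0.29. Tmem183a, a membrane protein, was the evenest of the 12 higher genes, at 0.24, 0.13, 0.21 and 0.22. Asb8, an adaptor of a ubiquitin ligase, was on the lower side with a mean of -0.26, as was Rtn3, a reticulon that shapes the endoplasmic reticulum, at -0.25, -0.20, -0.42 and -0.08. Ndst2, which modifies heparan sulfate, averaged 0.39, but its total RNA replicates gave only 0.04 and 0.17 against 0.79 and 0.57 in the poly(A) replicates.

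Signalling and cytoskeletal genes completed the set. Msn, moesin, which ties actin to the cell membrane, had 0.10, 0.44, 0.44 and 0.04. Map2k6, a kinase upstream of p38, stood at 0.12, 0.56, 0.15 and 0.18, with replicate 2 apart from the rest. On the lower side, Abi1, of the complex that drives actin branching, averaged -0.25, Mcf2, a guanine nucleotide exchange factor, -0.29, and Ppp1r11, an inhibitor of protein phosphatase 1, -0.27. Hapln2, which links hyaluronan to proteoglycans at nodes of Ranvier, had -0.23, -0.05, -0.37 and -0.47, and was below 0 on all 7 arrays. Selenoo, a mitochondrial selenoprotein, averaged -0.32, Paqr7, a membrane progestin receptor, -0.30, and Dcakd -0.28, the last with both signs on a second probe (0.12, -0.36 and 0.04 in replicates 2 to 4). Of the 24 genes, 3 had 1 sign on every array that measured them (Polr1c, Hapln2 and Rtn3). The 24 were picked from the 143 probes of 1 direction in all 4 replicates, and 14 of those 143 had 1 sign on every array.

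**Figure D4:**
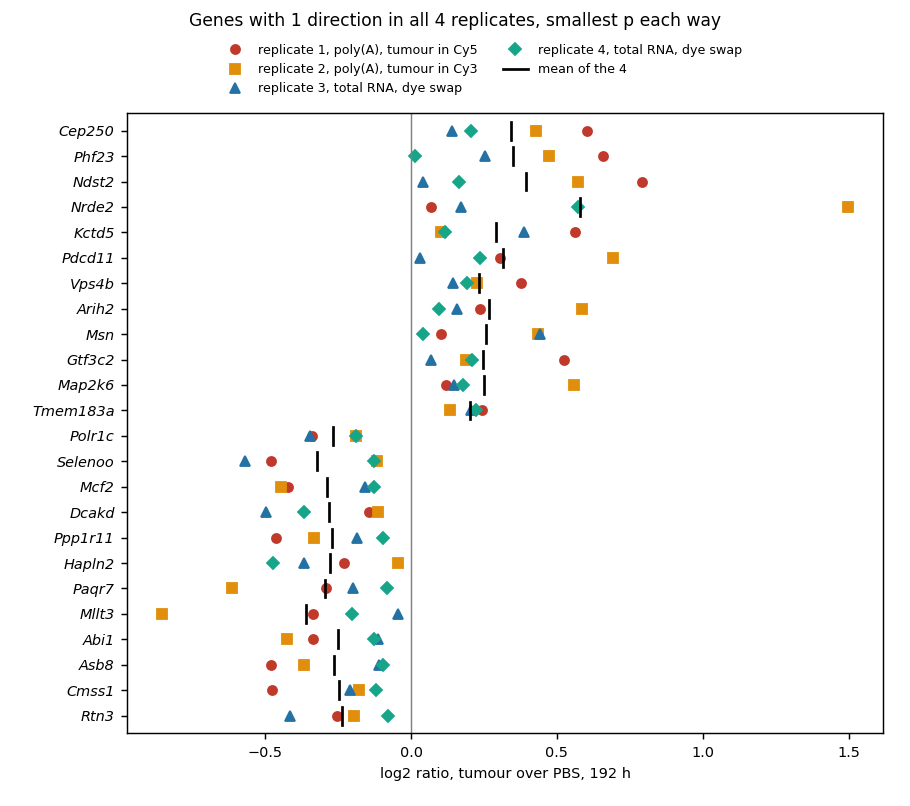
Symbols are the log2 ratios of tumour over PBS in the 4 replicates at 192 h for the 12 higher and 12 lower genes, and black bars are their means. Nrde2 reaches 1.5 in replicate 2, far from its other values, and the symbols of Polr1c and Tmem183a lie close together.

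Probes measured in 3 replicates could not enter that set, and the 3 with the smallest p of all came from among them (named after their values were seen). Wbp11, a splicing factor, had -0.52, -0.52 and -0.69 in replicates 1 to 3 (mean -0.58 ± 0.12, SE, limma adjusted p = 0.999). Bmp2, a secreted growth factor, had 0.74, 0.42 and 0.40 in replicates 1, 2 and 4, with a mean of 0.52 ± 0.13. Pcolce, an enhancer of procollagen processing, had 0.53, 0.97 and 0.31 in the same replicates. Each lacks a value from 1 of the dye-swapped replicates.

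Marker genes were used to check the tissue. Of the excitatory neuron markers 9 of 9 probes on the array passed the filter of 3 replicates, beside 52% of all 8997 probes. For inhibitory neurons 9 of 12 passed, for astrocytes 6 of 7, for oligodendrocytes 5 of 8, for microglia and macrophages 6 of 9 and for endothelium 4 of 7. For tissues and cells outside the cortex 4 of 6 passed for choroid plexus and meninges, 2 of 4 for striatum, 3 of 8 for blood cells and 3 of 11 for epithelial tumour cells. Signal over background was low in general: the median spot, background included, was 2.05 to 3.24 times its local background in the scanner files, which held 3099 to 7481 usable spots of 10080.

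Over 23 gene lists for cell types and pathways, 252 probes were tested, of which 0 passed at an adjusted p under 0.05 (0% of all probes) and 3 (Tbr1, C1qc and Nfil3) had an unadjusted p under 0.05 (0.834% of all probes). List medians lay between -0.14 and 0.13, with 14 of 23 above 0, beside 0.02 over all probes tested. In 2 of the 23 lists the medians of all 4 replicates had the same sign. A replicate median covers every list member measured in that replicate, also those without a value in 3 replicates. No list kept the sign of its median under all of the alternative settings.

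Neuronal genes gave small and mixed ratios. Excitatory neuron markers had 5 of 9 higher and a median of 0.01, with Tbr1, a transcription factor of deep-layer projection neurons, at -0.58, -0.19 and -0.39 in replicates 1, 3 and 4. Its mean of -0.39 ± 0.14 (SE, n = 3) had a limma adjusted p of 0.999. With tumour RNA in Cy5 Tbr1 had -0.58, -0.40 and -0.60 on arrays 310, 417 and 497. With tumour RNA in Cy3 it had 0.03 and -0.17 on arrays 419 and 498, and replicate 2 gave no value. Neurod2, another factor of excitatory neurons, averaged 0.15 with both signs among its replicates. Nrgn, which binds calmodulin in dendrites, had -0.39 and -0.79 in the poly(A) replicates and 0.15 and 0.16 in the total RNA replicates, and its mean of -0.22 became -0.03 without replicate 2. Of the inhibitory neuron markers 5 of 9 were lower (median -0.05), and Tac1, which encodes substance P, had 0.66, 0.85, -0.26 and 0.01.

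Of the genes of synaptic vesicles and release, 14 of 18 were lower, and their median was -0.09 beside 0.02 for all probes. Their replicate medians were -0.09, -0.09, -0.04 and -0.05, all below 0, yet 1 of the 14 members with 4 values had the same sign in all 4. Dnm1, the GTPase that pinches off vesicles, had -0.46, -0.15, -0.29 and 0.13. Napb, which takes part in recycling the fusion machinery, averaged -0.18 on this probe and -0.16 on a second probe. Syn1, a synapsin that tethers vesicles, went the other way at 0.25 on average, carried by 0.84 in replicate 4. Signalling genes for monoamines, opioids and neuropeptides were split, with 7 of 13 higher and a median of 0.03. Tacr1, the substance P receptor, had -0.51, -0.35 and -0.12 in replicates 1, 3 and 4 (mean -0.32). It was below 0 on the arrays with tumour RNA in Cy5 (-0.51, -0.88 and -0.46 on arrays 310, 417 and 497). With tumour RNA in Cy3 it was above 0 (0.19 and 0.22 on arrays 419 and 498), and replicate 2 gave no value. Npy2r, a neuropeptide Y receptor, averaged 0.17 with all 4 replicates above 0.

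Among glial lists, oligodendrocyte and myelin genes had the lowest median of the 23, -0.14, with 5 of 5 lower. Their replicate medians were -0.24, -0.22, 0.01 and -0.11. Sox10, a factor of the lineage, averaged -0.19, Mag, a myelin glycoprotein, -0.21, and Mal, a myelin proteolipid, -0.14. Each of them had at least 1 replicate above 0. Of the microglia and macrophage markers 4 of 6 were higher (median 0.06). C1qc, a subunit of complement C1q made by microglia, had 0.50, 0.48 and 0.09 in replicates 1, 2 and 4 (mean 0.36 ± 0.14, SE, limma adjusted p = 0.999), and P2ry12, a purine receptor of resting microglia, 0.26, 0.09, -0.06 and 0.39. The sign of C1qc differed between arrays 497 and 498 of replicate 4, at -0.33 and 0.51.

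Astrocyte markers had 4 of 6 higher and a median of 0.05. Slc4a4, a bicarbonate transporter of astrocytes, averaged -0.35 on one probe and 0.08 on another. Endothelial markers were higher in 3 of 4 (median 0.07) and choroid plexus and meninges markers in 2 of 4 (median 0.01). Among the choroid plexus markers Kl, the klotho gene, stood at 1.43 in replicate 1 and -0.22, 0.23 and 0.09 in the others. Blood cell markers had a median of 0.03 over 3 probes. Epithelial markers that tumour cells could bring had a median of -0.10 over 3 tested probes, 2 of them lower, but replicate medians of -0.26, 0.29, 0.01 and 0.10. Vil1, villin of the gut epithelium, had -0.26, -0.23 and -0.21 in replicates 1, 2 and 4.

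Lists for inflammation and stress hormones, the routes by which a tumour is known to signal to the brain, showed no shared direction over the replicates. Cytokine and inflammation genes were higher in 11 of 16, with a median of 0.07, and their replicate medians were 0.08, -0.04, 0.04 and -0.04. Lbp, which binds endotoxin, had -0.28, -0.75 and -0.06 in replicates 1, 2 and 4. In the same replicates Cxcl1, a neutrophil chemokine, had -0.15, 0.68 and 0.43. Ptges, which makes prostaglandin E2, the mediator of fever, had 0.18, 0.14 and 0.11, while arrays of 1 replicate took opposite signs (0.52 and -0.24 on arrays 306 and 314, 0.34 and -0.11 on arrays 497 and 498). Interferon response and antigen presentation genes were lower in 3 of 5 (median near 0). Isg15, a ubiquitin-like interferon target, had 0.93, 0.10 and 0.09 in replicates 1 to 3. In replicates 2 and 3 its arrays took opposite signs (-0.35 and 0.55 on arrays 306 and 314, 0.38 and -0.20 on arrays 417 and 419). Array 498 of replicate 4 gave -0.51, and array 497 gave no value. Ifnar1, a chain of the type I interferon receptor, was at -0.18 on average. Glucocorticoid responsive genes were evenly split, 3 of 6 each way, and Hsd11b2, which inactivates glucocorticoids, had -0.12, -0.14 and -0.18 in replicates 2 to 4.

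Of the immediate early genes 8 of 10 were lower (median -0.05), although the replicate medians were -0.25, 0.12, near 0 and 0.02. Dusp1, a phosphatase induced by activity and stress, had -0.18, -0.26, -0.23 and 0.02. Circadian clock genes were higher in 6 of 9 with a median of 0.12, and their replicate medians took both signs (0.14, 0.02, -0.10 and -0.06). Nfil3, a repressor tied to the clock, was against that direction at -0.26, -0.33 and -0.30 in replicates 2 to 4 (mean -0.30 ± 0.12, SE, limma adjusted p = 0.999). The arrays of replicate 3 disagreed on it, with -0.97 on array 417 and 0.31 on array 419. Csnk1d, a kinase of the clock proteins, averaged -0.22 and Nr1d2, a nuclear receptor of the clock, 0.26.

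Housekeeping pathways were spread on both sides of 0. Ribosomal protein genes were higher in 20 of 34 (median 0.02), with Rps29 at -0.15 on average. Rpl9 had -0.59 and -0.62 in the poly(A) replicates, against -0.06 and 0.06 in the total RNA replicates, and Rpl7l1 had 0.66, 0.15, 0.25 and -0.09 in replicates 1 to 4. Oxidative phosphorylation genes were higher in 25 of 51 (median -0.01), yet the members with the smallest p were below 0: Ndufa7, of complex I, averaged -0.21, and Cox7c and Cox6c, of complex IV, -0.31 and -0.19. For Cox7c that mean came from the poly(A) replicates (-0.44 and -0.78, against -0.03 and 0.03 in the total RNA replicates). Proteasome genes were higher in 11 of 18 (median 0.02), with Psmd3 and Psmd7 of the regulatory particle at 0.20 and 0.14, and the assembly chaperone Psmg3 at -0.20 on the probe named and -0.10 on a second probe. In the list for heat shock and stress of the endoplasmic reticulum, 9 of 14 were higher (median 0.06), with the isomerase Pdia6 at 0.15 on average. The stress kinase Eif2ak3 had 0.77, 0.03 and -0.04 in replicates 1, 2 and 4, so that replicate 1 alone carried its mean of 0.25. The co-chaperone Dnaja1 had 0.09, 0.47, -0.12 and 0.12, and its mean of 0.14 became 0.03 without replicate 2. Cell cycle and DNA replication genes were higher in 4 of 5 with a median of 0.13 and replicate medians of 0.07, 0.12, 0.11 and 0.02. Ccnd3, a G1 cyclin, had 0.17, 0.35 and 0.23 in replicates 1, 2 and 4, and Mki67, a marker of dividing cells, 1.58, -0.42 and 0.17. Cholesterol synthesis genes were higher in 4 of 5, with a median of 0.03 and replicate medians from -0.27 to 0.04.

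**Figure D5:**
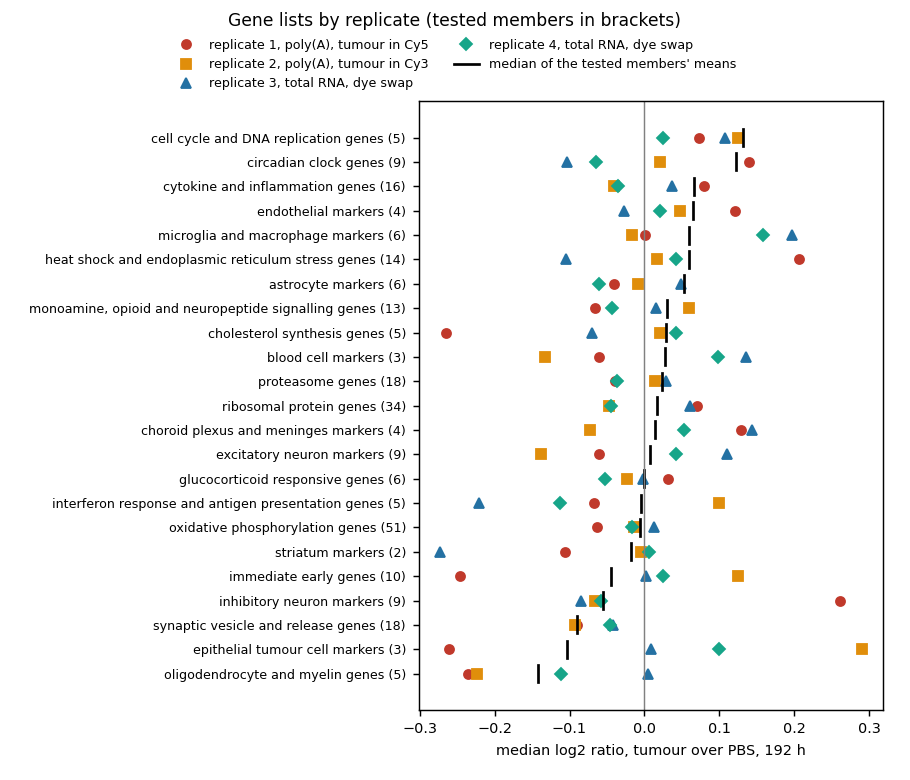
Rows are the 23 gene lists with the number of tested probes in brackets, symbols are the median log2 ratio of tumour over PBS of the list in each replicate at 192 h, and black bars are the median of its tested probes' means. In 2 lists, the synaptic vesicle list (all below 0) and the cell cycle list (all above 0), the 4 symbols share a side of 0.

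The kind of RNA divided the replicates, and each kind was also fitted alone. The poly(A) replicates 1 and 2 gave 0 calls among 3955 probes (24 at an unadjusted p under 0.05). The total RNA replicates 3 and 4 gave 17 of 3378, 7 higher and 10 lower. Both replicates had the same sign in 12 of the 17, and the median size of the log2 ratio was 1.11 in the replicate with the larger value and 0.17 in the other. Zfp319, a zinc finger protein with the smallest adjusted p (5.6e-08), had -1.70 in replicate 3 and -0.28 in replicate 4, and 0.18 and 0.10 in the poly(A) replicates. Snrpd2, a core protein of the spliceosome, had -0.01 and 1.65. In that fit limma drew the spread of each probe almost wholly from the common estimate (230 prior degrees of freedom, against 3.80 in the fit of all 4 replicates). For 3 of the 17 (Slc11a2, Mocs2 and St3gal6) the poly(A) replicates had the same direction as that fit wherever they gave a value, and Hoxc4 had no poly(A) value. Slc11a2 and St3gal6 had only 1 poly(A) value each. Replicates 3 and 4 themselves differed in sign for Mocs2 (-1.12 and 0.09) and St3gal6 (1.49 and -0.28). These genes were named after their values were seen.

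The mean log2 ratio at 192 h minus that at 18 h was tested against 0 on 3450 probes. They had values in at least 3 of the 4 replicates at 192 h and at least 2 of the 3 at 18 h. Limma called 0 of them (0%), with 81 at an unadjusted p under 0.05 (2.35%), of which 53 were higher at 192 h (1.54%) and 28 lower (0.812%), and the smallest adjusted p was 0.999. Atp6ap2, an accessory subunit of the vacuolar proton pump, had 0.13, 0.46, -0.27 and near 0 in replicates 1 to 4 at 192 h, against -1.08 and -0.93 in replicates 4 and 5 at 18 h. The difference of 1.08 ± 0.23 (SE, limma adjusted p = 0.999) lay between values of both signs at 192 h and values near -1 at 18 h. Armc1, an armadillo repeat protein, had -0.35, 0.65, 0.42 and 0.11 at 192 h, against -0.78, -0.97 and -0.73 at 18 h, with no overlap between the times (difference 1.03 ± 0.24, limma adjusted p = 0.999). Of the 3450 probes, 343 had no overlap between the times (9.94%). A second probe of Armc1 had 0.10, 0.52, -0.08 and 0.05 at 192 h, against 0.11, -0.09 and -0.71 at 18 h, which overlap (difference 0.38 ± 0.23). Polr1c was below 0 in all 4 replicates at 192 h, as given above, and had 0.41, 0.51 and 0.07 at 18 h, a difference of -0.60 ± 0.17 (limma adjusted p = 0.999). Of the 24 genes with 1 direction in all 4 replicates at 192 h, 19 were measured in at least 2 replicates at 18 h. The mean at 18 h had the same sign in 10 of these. The share over all probes was not computed, so the count is no result about these genes. Time is mixed with RNA kind and dye balance in this comparison, because the 18 h replicates were all dye-swapped total RNA.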

How the data were processed

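Cortex RNA after tumour cells and after PBS was compared within 2-colour arrays at 192 h and, for 1 contrast, 18 h. Per the file headers, each of 3 scanner files per array gives intensity on a linear scale from which the authors' image software, not given in the sources used here, had taken the local background. The authors' deposited score per spot is a processed log ratio centred near 0 whose log base and normalization are not given, and its correlation with the scanner ratio was 0.602 to 0.859 at 192 h and 0.562 to 0.880 at 18 h. From the deposited intensities the log2 ratio of both channels was computed here, leaving out spots marked X, Y, Z or B or with no signal in a channel, and normalised per file by loess (span 0.3, 4 iterations). It was turned to tumour over PBS by the dye labels and averaged over files, spots of 1 GenBank entry (a probe) and arrays of a replicate. A dye-swapped replicate needed both orientations. Names came from the platform annotation (9066 to 9074 of 10080 spots with 1 symbol, 12 with several, the others with none), and 8640 of 8727 gene identifiers matched a RefSeq table (GRCm38.p6) that served for symbols only. Where a gene has 2 probes, both are given.

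limma 3.58.1 (R 4.3.3; lmFit and eBayes) tested probes with at least 3 of 4 replicates, without covariates. The fits were checked on simulated data. These were drawn independently for each replicate without a dye effect, so the check does not cover the dye pattern of the real arrays. The design text calls the replicates biological without naming the animals behind each, and the number of arrays limits precision. Genes named are the 12 higher and 12 lower with the smallest p among those of 1 direction in 4 of 4 replicates, the members of each list with the smallest p (up to 3, named where p was under 0.3), and the 3 with the smallest p between times. The rule, members and lists were chosen with earlier results of these data known. The replicate numbers 3 and 4 occur at both times, but the deviations of same-numbered samples correlated at -0.105 and -0.017, so they were not treated as pairs. Alternatives covered dyes, normalization, filters, scanner files, deposited scores, array 262, layout, kind of RNA and each replicate left out.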

Additional observations from a re-analysis of the deposited data

Results flagged for a closer look

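In 83 sets of 4 replicate values at 192 h, the highest or lowest replicate was compared with the others by its gap to the nearest of them relative to the range of the set. 3 sets exceeded the 95% limit of Dixon's test. The sets include genes picked for 1 direction in all 4 replicates and a small p. The 1 in 20 that chance gives for unpicked sets is therefore no measure for this count. Map2k6, a kinase upstream of p38, stood at 0.558 in replicate 2, with the other replicates between 0.12 and 0.18. Cdkn1a, a cell cycle inhibitor among the glucocorticoid responsive genes, stood at 0.797 in replicate 1, with 0.05, -0.10 and -0.07 in replicates 2 to 4. The median of the inhibitory neuron markers was 0.261 in replicate 1, with -0.07, -0.09 and -0.06 in replicates 2 to 4. What sets these values apart was not tested.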

How the results depend on the processing

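Of 25 alternative fits at 192 h, 24 called 0 probes, with 7 to 264 at an unadjusted p under 0.05 (264 with the dye orientation as a covariate). The total RNA replicates 3 and 4 alone called 17, as described above, and there 8 of 23 list medians were above 0 in place of 14. Leaving out 1 replicate in turn left the count at 0 at 192 h (adjusted p of at least 0.844). The count was also 0 in each such fit of 192 h minus 18 h. There the smallest limma adjusted p fell to 0.190, for Armc1 without replicate 1 of 192 h. With the dye orientation as a covariate that difference had 0 calls and a smallest limma adjusted p of 0.260, also for Armc1. The median correlation of the replicates stayed between -0.063 and 0.001. The print layout could not be fitted as a random block on 4 replicates over 3 layouts; with the 18 h replicates added, a choice made after seeing the data, it called 0 (correlation -0.152). The replicate block between the times called 0, with 128 at an unadjusted p under 0.05 against 81 without it; same-numbered samples did not deviate together. Other alternatives added after seeing the data were removal of the dye part measured in the swaps and the third file of array 419 left out, whose ratios correlated with those of another file of that array at 0.119. Both called 0.

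Direction turned in these named genes, and the cause was not tested. Without loess it turned for Asb8 (0.12), Sox10 (0.13), Dusp1 (0.10) and Ifnar1 (0.13). With the deposited scores it turned for Neurod2 (-0.00169), Ifnar1 (0.00227), Dnaja1 (-0.00837), Nfil3 (0.011), Rpl9 (0.070) and Rps29 (0.10). With the total RNA replicates alone it turned for Atp6ap2 (-0.14), Nrgn (0.16), Tac1 (-0.13), Nr1d2 (-0.0904) and Cdkn1a (-0.0873). With the poly(A) replicates alone it turned for Syn1 (-0.00288). The third scanner file gave Arih2 -0.0404 and Neurod2 -0.0202, no background subtraction gave Ptges -0.11, replicate weights gave Atp6ap2 -0.015, array 262 in replicate 1 gave Csnk1d 0.044, and loess inside each sub-grid gave Cdkn1a -0.0230. With 1 replicate left out, Atp6ap2 ranged from -0.0478 (without replicate 2) to 0.195 and Cdkn1a from -0.0418 (without replicate 1) to 0.258. Low signal over background and 4 replicates limit what these arrays can show.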
